A study of Mus musculus with 18 samples.

Results

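The genes described here are the mouse zinc finger genes whose symbol is Zfp followed by 3 digits and at most 1 letter. They were chosen by symbol and by a mean raw count of at least 100 over the 18 deposited libraries, which left 221 of the 311 symbols of this form in the table. Because the mean count selected them, their abundance is a description and carries no test. Of the 221, 211 averaged at least 100 raw counts in each of the 6 groups, and 10 reached the mean through some of the groups only, namely Zfp184, Zfp429, Zfp446, Zfp493, Zfp580, Zfp661, Zfp931, Zfp937, Zfp940 and Zfp960. For these the count threshold itself leans on the groups where they are high, and a call among them below is to be read with that. The genes just inside the threshold were Zfp937, Zfp446 and Zfp493, with mean raw counts of 100.3, 108.4 and 114.4, and those just outside were Zfp524, Zfp605 and Zfp213, with 96.4, 93.8 and 90.2. Another 14 symbols had no count in any library.

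RNA sequencing was done on 4T1, a wild-type breast carcinoma-derived line of BALB/cfC3H origin, and on 4T1R1 and 4T1R2, populations, not stated to be clones, that survived repeated exposure of 4T1 to 17-DMAG, which blocks the chaperone HSP90. Each of the 3 was sequenced without drug and after 1.5 µM 17-DMAG, as 3 libraries per group, from subconfluent wild-type cultures in each case. The treatment before RNA extraction lasted 48 h in the sample labels and 2 h in the series description, and the sources also differ on the exposures used for selection, so no result below is tied to a duration. Totals ran from 23354461 to 55094630 counts per library, with a median of 30747713. Replicates 1 and 2 of treated 4T1 were closer to each other than the other pairs within groups among genes with few reads, with a chi-square of 1.1 per gene where their counts summed to 4 to 30 against 2.04 to 2.22 in the other 17 pairs, but not above 1000 counts, where their 3.34 lay within the 3.03 to 18 of the others. They may come from 1 library and were averaged into 1 sample, giving n = 2 in that group and n = 3 in the other 5. The library names of 4T1R1 begin with another number prefix than those of 4T1 and 4T1R2, and what the prefix stands for is not stated, so a difference between 4T1R1 and the others cannot be told apart from whatever it marks. Responses to 17-DMAG were compared within 1 prefix. All 7 epithelial markers were detected in every library. Of these, 6 were lower in untreated 4T1R1 and 5 in untreated 4T1R2, where Cdh1 was 0.27 higher on the log2 scale. Their summed normalized counts were 51476 to 54077 in untreated 4T1R1 and 59661 to 60872 in untreated 4T1R2, against 76854 to 77977 in untreated 4T1. The sums of 6 leukocyte and 4 endothelial markers stayed between 8.64 and 66.5 per library, with 2 and 1 of them at 3 counts or fewer throughout. The endothelial sum was 11.7 to 16.6 in untreated 4T1, 34.4 to 40.9 in untreated 4T1R1 and 23.5 to 34.5 in untreated 4T1R2. On the log2 scale Tie1 was 3.12 and 2.80 higher in untreated 4T1R1 and 4T1R2, and Csf1r 1.54 higher in untreated 4T1R2, all on few reads. The sum of 4 fibroblast markers ran from 375.4 to 1027, with 666.8 to 744.7 in untreated 4T1 and 375.4 to 396.4 with drug. Nearly all of it was Pdgfra. The highest raw counts of Pdgfrb, Dcn and Lum in any library were 7, 2 and 0. The part of these shifts in the results below was not tested.

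Proteins of this family bind DNA or RNA through C2H2 zinc fingers, small loops that hold a zinc ion between a pair of cysteines and a pair of histidines. Many of them carry a KRAB domain at the start of the protein, which recruits Trim28 and through it the histone methyltransferase Setdb1 and HP1 proteins. Trim28-bound KRAB zinc finger proteins are best known for silencing endogenous retroviruses and other retroelements, and their genes lie in tandem clusters that share sequence.

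In the reference proteins of GENCODE vM21, 215 of the 221 genes had at least 1 finger by sequence pattern, with a median of 10 and a maximum of 41. A KRAB pattern was found in 111 of them and not in 110, and a SCAN domain in 7. The KRAB genes had lower counts, with a median of 78.5 normalized counts per kb of exon against 158 for the others. Normalized counts are raw counts divided by the TMM effective library size and multiplied by the mean effective size. Reads can be split between copies or overlapping genes: 45 of the 221 shared at least 5% of their 50-base words with another gene, 20 overlapped an exon of another gene on the same strand and 58 on the opposite strand. Whether strand was used in counting is not given in the sources used here. The widest difference between group means among the 221 genes was 3.91-fold, for Zfp503, and 1.81% of them reached 2-fold, beside 9.7% of the 10348 tested genes with the same minimum mean count. The median ratio of the highest to the lowest group mean was 1.34 in both sets.

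The 250 bases before the gene start are printed from the RefSeq promoter table, build GRCm38.p6, for 5 genes described below that stand for different patterns and were chosen after their values were seen. These are Zfp518b, which had no read in the resistant populations, Zfp503 and Zfp420, the genes that moved past 2-fold after 17-DMAG, and Zfp442 and Zfp945, a pair of KRAB genes that rose in treated 4T1R1. Capitals mark matches to CCAAT or GGGCGG on either strand, read 5′ to 3′ along the gene's strand. The windows are chr5:38684827-38685076 for Zfp518b, chr14:21989602-21989851 for Zfp503, chr2:150451502-150451751 for Zfp442 and chr17:22867135-22867384 for Zfp945, all on the minus strand, and chr7:29859762-29860011 for Zfp420 on the plus strand.
Zfp518b: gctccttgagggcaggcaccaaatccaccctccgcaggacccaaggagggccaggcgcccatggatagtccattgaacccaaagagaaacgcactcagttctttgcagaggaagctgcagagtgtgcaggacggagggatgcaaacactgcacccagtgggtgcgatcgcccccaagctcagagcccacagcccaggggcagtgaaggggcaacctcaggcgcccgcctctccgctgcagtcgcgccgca
Zfp503: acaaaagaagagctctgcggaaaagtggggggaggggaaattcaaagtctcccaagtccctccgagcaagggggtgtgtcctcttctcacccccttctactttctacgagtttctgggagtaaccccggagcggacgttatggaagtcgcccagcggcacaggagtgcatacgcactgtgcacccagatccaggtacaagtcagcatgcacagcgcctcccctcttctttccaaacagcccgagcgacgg
Zfp420: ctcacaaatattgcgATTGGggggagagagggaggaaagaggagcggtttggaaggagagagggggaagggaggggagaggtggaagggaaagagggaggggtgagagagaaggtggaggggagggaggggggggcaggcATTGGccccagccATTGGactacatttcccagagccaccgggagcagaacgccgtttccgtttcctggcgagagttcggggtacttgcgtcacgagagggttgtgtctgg
Zfp442: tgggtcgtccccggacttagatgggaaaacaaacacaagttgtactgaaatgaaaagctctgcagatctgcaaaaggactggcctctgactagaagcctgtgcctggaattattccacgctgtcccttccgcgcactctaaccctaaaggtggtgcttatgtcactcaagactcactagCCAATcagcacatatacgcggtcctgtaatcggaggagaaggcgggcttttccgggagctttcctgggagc
Zfp945: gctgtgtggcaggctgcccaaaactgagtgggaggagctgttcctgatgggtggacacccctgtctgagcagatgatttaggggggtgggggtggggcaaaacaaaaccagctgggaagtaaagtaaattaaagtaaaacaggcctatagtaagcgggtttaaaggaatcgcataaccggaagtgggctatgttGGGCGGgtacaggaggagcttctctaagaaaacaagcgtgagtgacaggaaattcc

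Promoters were matched for 185 of the 221 genes. A CCAAT match stood in 57.1% of the 98 KRAB promoters and 41.4% of the 87 others, against 34.5% of all 27025 promoters of the same length. GGGCGG stood in 31.6% of the KRAB promoters, 57.5% of the others and 33% of all. The core letters of a heat shock element, GAANNTTC, stood in 9.18% and 9.2% of the KRAB and other promoters, against 6.79% of all, and in none of the sequences printed above. All 3 motifs were searched on both strands. The printed Zfp420 window holds 3 CCAAT matches and that of Zfp442 holds 1, the Zfp945 window holds 1 GGGCGG match, and the windows of Zfp518b and Zfp503 hold neither. The matches do not overlap, and a match is a description of letters only.

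Zfp518b and Zfp612 were named when the set was drawn up, for being lost in resistant cells, but their mean raw counts of 39.4 and 84.3 put both below the threshold. Since they were chosen for this pattern, their levels are given without a test. Zfp518b, whose human counterpart binds the H3K9 methyltransferase G9a and the Polycomb methyltransferase EZH2, lies on the minus strand at chr5:38668484-38684826. Untreated 4T1 held 114, 100.4 and 86.8 normalized counts of it, and treated 4T1 held 130.0 and 101.5. All 12 resistant libraries, treated or not, held 0 reads. Taking a floor of 3 counts per library, untreated 4T1 was at least 34.1-fold higher than untreated 4T1R1 and at least 29.2-fold higher than untreated 4T1R2. In bulk RNA, fewer cells with a transcript and less of it per cell cannot be told apart. The absence of reads held in both resistant populations, under both name prefixes.

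Zfp612, a KRAB-family locus at chr8:110079746-110092741, was lost in 4T1R2 and not in 4T1R1. Untreated 4T1 held 114, 72.7 and 129 normalized counts, and untreated 4T1R1 held 92.6, 103 and 99.4, within the 4T1 range. Untreated 4T1R2 held 2, 0 and 4 raw reads, and treated 4T1R2 held 1, 2 and 2. The summed counts of 310 and 6 gave a ratio of untreated 4T1 to untreated 4T1R2 of 47.0 after scaling, with an exact 95% interval of 21.4 to 129 that covers counting error only and is too narrow because mates of a pair were counted as separate reads. Loss in resistant cells thus described Zfp518b in both populations and Zfp612 in 4T1R2 alone.

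**Figure D1:**
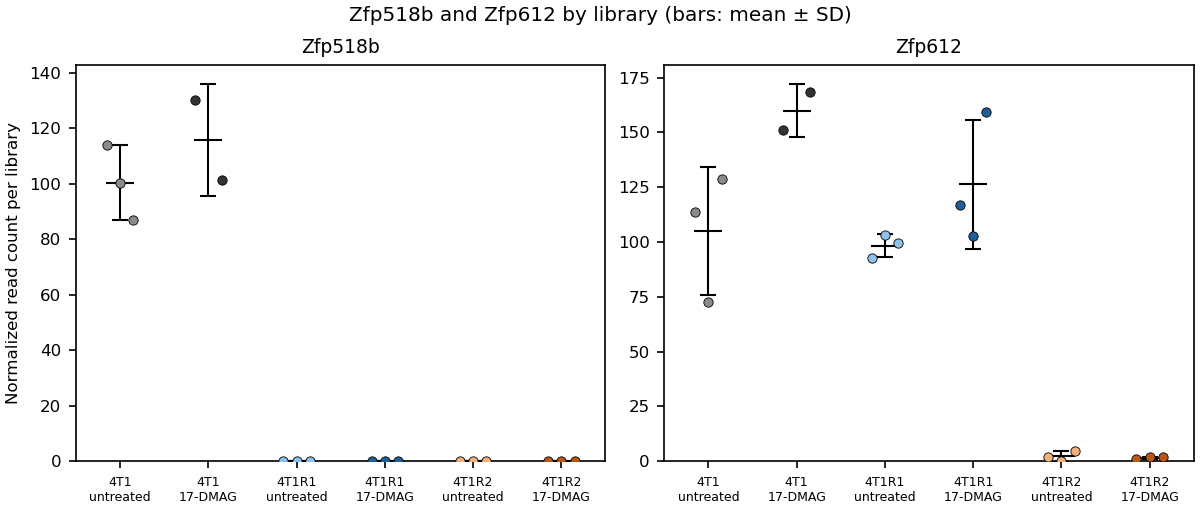
Normalized read counts of Zfp518b and Zfp612 in each library (points, y axis) by group (x axis), with mean ± SD as bars; the first point of treated 4T1 is the mean of 2 libraries. Zfp518b is at 0 in all 12 resistant libraries, and Zfp612 lies between 0 and 4.68 in the 6 libraries of 4T1R2 and at 72.7 or above in the others.

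Apart from Marveld3, which had few reads, the nearest tested genes on either side stayed expressed. To one side of Zfp518b on chromosome 5, the sugar and urate transporter gene Slc2a9 averaged 401 normalized counts in untreated 4T1, 276 in 4T1R1 and 334 in 4T1R2, and the actin disassembly factor Wdr1 averaged 12775, 10404 and 9892. Rab28 and Bod1l, 2940 and 3103 kb away on the other side, differed by 0.34 or less on the log2 scale. Beside Zfp612 on chromosome 8, the phosphatase gene Phlpp2 averaged 1619, 1496 and 1216 counts in untreated 4T1, 4T1R1 and 4T1R2, and the cap methyltransferase gene Cmtr2 averaged 1243, 979 and 799, a fall of 0.64 on the log2 scale in 4T1R2 (SE 0.06, adjusted p = 2.50e-12, edgeR). Vac14 was 0.23 lower in both. Marveld3, a tight junction gene, averaged 17.4, 3.28 and 9.45 counts, and its fall of 2.37 in 4T1R1 on the log2 scale (SE 0.62, adjusted p = 0.00128, edgeR) rests on few reads.

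Between resistant and parental cells, fewer of the 221 genes were called than of all genes, and in both directions. Against untreated 4T1, untreated 4T1R1 had 44 of the 221 higher and 37 lower by edgeR's quasi-likelihood test at an adjusted p under 0.05, or 19.9% and 16.7%, where 25.2% and 27.5% of all 13507 genes tested were called. Untreated 4T1R2 had 42 higher and 50 lower, or 19% and 22.6%, where 25.6% and 26.9% of all genes were called. The median log2 change was 0.016 in 4T1R1 and 0.02 in 4T1R2, and none of the 221 passed 2-fold in either comparison. Both comparisons share the untreated 4T1 libraries.

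The KRAB genes called went in both directions, and each share lay below that of all genes. In untreated 4T1R1 14 of the 111 were higher and 18 lower, or 12.6% and 16.2%, beside 25.2% and 27.5% of all genes. In 4T1R2 17 were higher and 19 lower, or 15.3% and 17.1%, beside 25.6% and 26.9% of all genes. Among the 110 without a KRAB match the counts were 30 and 19 in 4T1R1, or 27.3% and 17.3%. In 4T1R2 they were 25 and 31, or 22.7% and 28.2%. Among the 10348 genes with the same minimum mean count, 26.4% were higher and 33.7% lower in 4T1R1, and 28.4% and 32.4% in 4T1R2. The median mean raw count was 367.5 for the KRAB genes and 927 for the others, and its part in these shares was not tested.

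Zfp932, a KRAB protein that binds endogenous retroviruses, had 541, 450 and 518 normalized counts in untreated 4T1. Untreated 4T1R1 held 378, 275 and 300, and untreated 4T1R2 held 371, 342 and 337. All 6 resistant libraries lay below all 3 parental ones, with log2 changes of -0.66 (SE 0.10, adjusted p = 1.86e-07, edgeR) in 4T1R1 and -0.52 in 4T1R2. Zfp932 shares 37.0% of its 50-base words with the paralogue Gm15446, so part of its reads may belong there. Of the other retroelement binders listed, Zfp809, which recognises the primer binding site of murine leukaemia viruses, ran from 628 to 748 counts over all libraries and was not called in any comparison. Zfp708 stayed below the count threshold, with 32.9 counts on average in untreated 4T1, and Zfp819 had none there.

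The KRAB gene Zfp958 showed the same order, with 617, 567 and 670 counts in untreated 4T1 and between 414 and 492 in the 6 untreated resistant libraries. Its log2 change was -0.54 (SE 0.08, adjusted p = 2.56e-07, edgeR) in 4T1R1 and -0.42 in 4T1R2. Zfp664, without a KRAB match and at 3677 to 3877 counts in untreated 4T1, fell to 2612, 2713 and 2764 in 4T1R1 and to 2822, 2956 and 2898 in 4T1R2. Its spread within groups was small, and the log2 change was -0.49 (SE 0.04) in 4T1R1 and -0.39 in 4T1R2. Zfp931 was called in 4T1R1 only, at -0.65 on the log2 scale, and shares 23.3% of its 50-base words with another gene. It passed the count threshold through some of the groups only.

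Higher in both resistant populations was the KRAB gene Zfp940, on a chromosome 7 cluster. It is one of the 10 genes that passed the count threshold through the groups where they are high. It rose from 108, 75.9 and 95.6 counts in untreated 4T1 to 144, 182 and 153 in 4T1R1 and 160, 164 and 129 in 4T1R2, a log2 change of 0.77 (SE 0.15, adjusted p = 2.99e-05, edgeR) and 0.70. Zfp429 (0.66), Zfp579 (0.57) and Zfp941 (0.53) had the next largest log2 rises in 4T1R1 without overlap of libraries. They were also higher in 4T1R2, by 0.44, 0.37 and 0.41. Zfp429 is another of the 10 genes and shares 25% of its 50-base words with Rsl1, itself a KRAB gene.

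The changes called in 4T1R2 included those of Zfp704 and Zfp503, neither with a KRAB match. Zfp704 held 1759, 1721 and 1725 counts in untreated 4T1, 1325, 1350 and 1393 in 4T1R1 and 1062, 1050 and 1016 in 4T1R2, so the 3 groups did not overlap. The log2 change was -0.73 (SE 0.05, adjusted p = 6.23e-16, edgeR) in 4T1R2 and -0.36 in 4T1R1. Zfp503, of the NET family of corepressors with an unusual zinc finger, went the other way. It rose from 1735, 1816 and 1700 counts to 2263, 2516 and 2383 in 4T1R1 and 2763, 2938 and 2823 in 4T1R2. The log2 changes were 0.45 and 0.70. Its relative Zfp703, a luminal breast cancer oncogene, was not called, at 0.14 and -0.02.

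Zfp473, the counterpart of a histone pre-mRNA processing factor, rose in 4T1R2 to 212, 198 and 145 counts from 106, 139 and 90.7 in untreated 4T1 (log2 change 0.74, SE 0.16, adjusted p = 1.09e-04, edgeR). It overlaps Vrk3 on the opposite strand. Zfp799, a KRAB gene, rose by 0.57 in 4T1R2 and 0.36 in 4T1R1. Zfp532 fell by 0.66 in 4T1R2 and by 0.19 in 4T1R1. Zfp593, a ribosome assembly factor, fell by 0.54 in 4T1R2.

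Zfp184 differed between the resistant populations, but it passed the count threshold through some of the groups only. Untreated 4T1R2 held 82.5, 92.6 and 77.2 counts, against 157, 144 and 122 in 4T1R1 and 159, 130 and 111 in 4T1. Between 4T1R2 and 4T1R1, 23 of the 221 genes were higher and 32 lower, or 10.4% and 14.5%, where 19.7% and 19% of all genes were called. Zfp184 (-0.75), Zfp707 (-0.50) and Zfp532 (-0.47) were the lowest in 4T1R2 on the log2 scale, and Zfp422 (0.45), Zfp942 (0.40) and Zfp212 (0.35) the highest without overlap. The name prefix and the population cannot be told apart in this comparison.

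**Figure D2:**
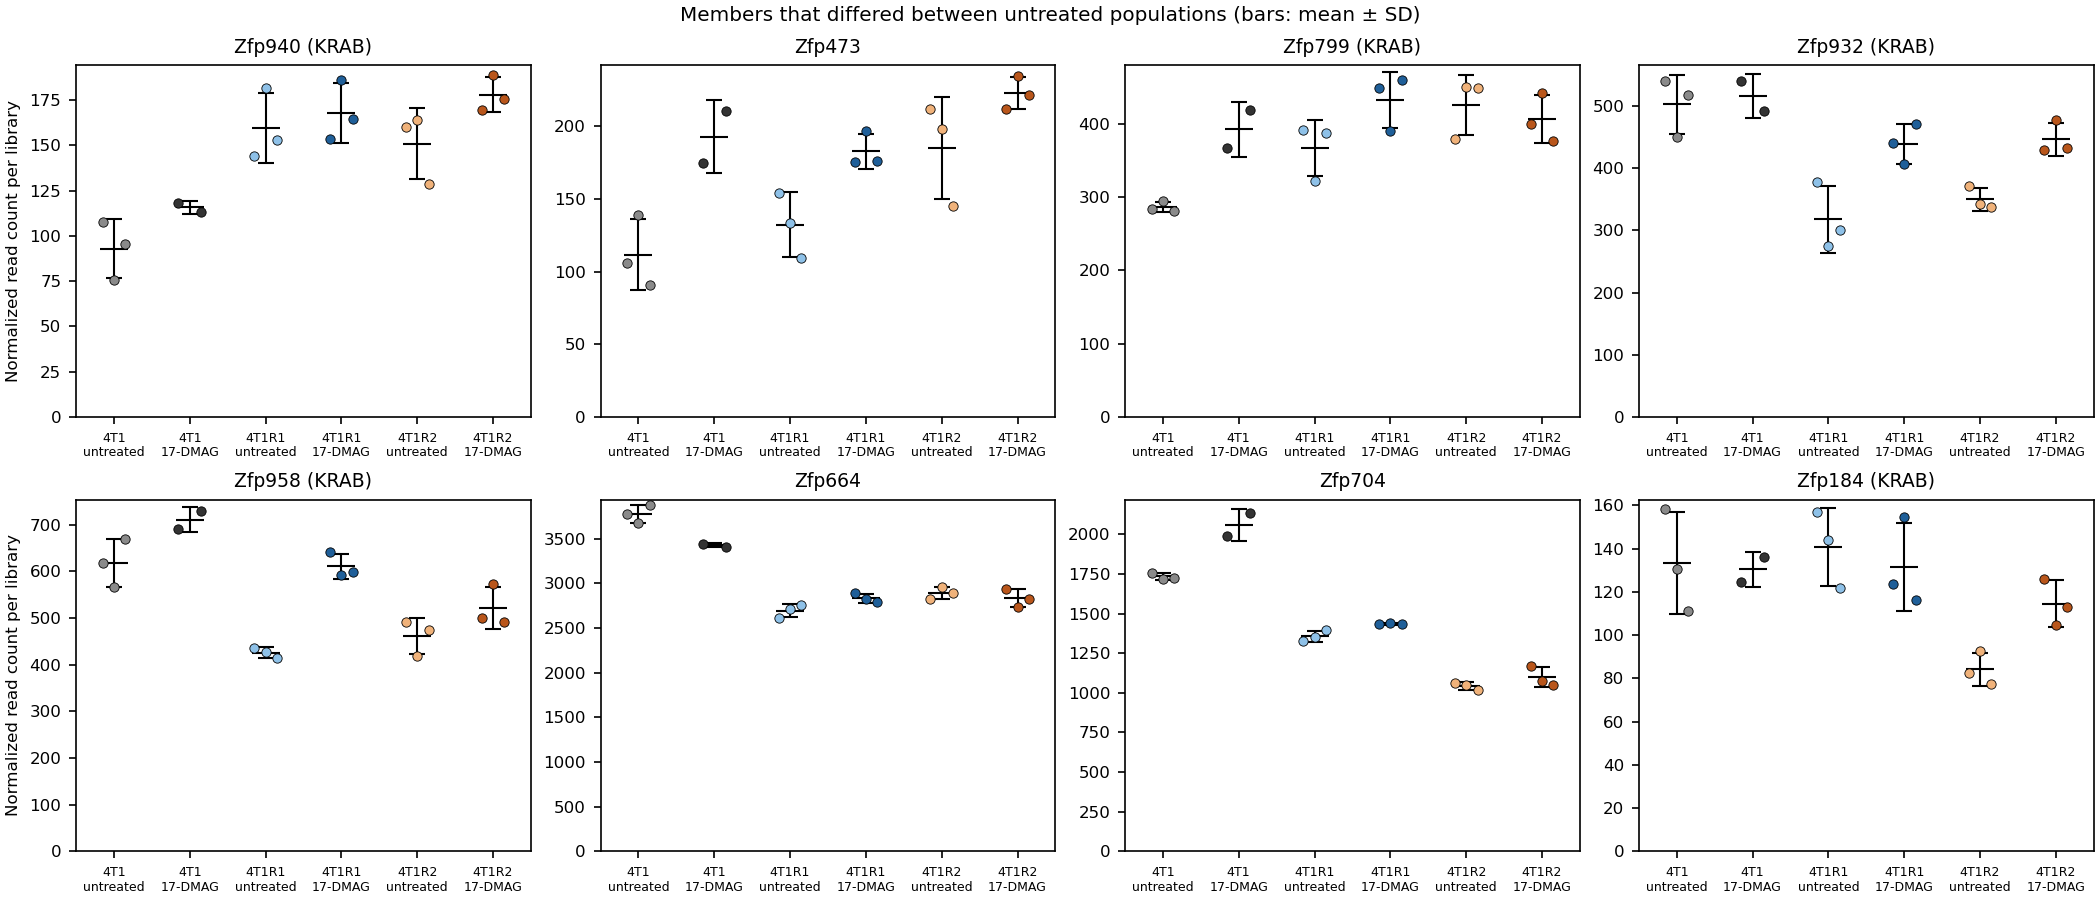
Normalized read counts (y axis) in each library (points) by group (x axis) for 8 genes called between untreated populations, with mean ± SD as bars. Zfp932, Zfp958, Zfp664 and Zfp704 lie below untreated 4T1 in all 6 untreated resistant libraries, and Zfp940 above it.

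After 17-DMAG, many KRAB genes were called higher in 4T1R1 and none was called lower. Of the 221 genes, 82 were higher and 13 lower in treated 4T1R1, or 37.1% and 5.88%, where 13.9% and 14.3% of all genes were called. Among the 10348 genes with the same minimum mean count these shares were 17.5% and 17.9%. All 49 KRAB genes called there were higher, which is 44.1% of 111, and none was lower, also at an unadjusted p under 0.05, where 62 were higher, and by DESeq2, where 45 were higher. The median log2 change of the KRAB genes was 0.22, that of the other 110 was 0.049, with 33 higher and 13 lower, and that of all genes tested was -0.01. The estimate was above 0 for 102 of the 111 KRAB genes. The class was not tested as a set, and these counts and medians are descriptive.

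Genes with little shared sequence gave similar counts. Among the 64 KRAB genes with no exon overlap and under 5% shared 50-base words, 29 were higher and 0 lower in treated 4T1R1, with a median log2 change of 0.21. Zfp symbols with 1 or 2 digits, outside the 221, gave 28 KRAB genes at the same count minimum, of which 11 were higher and 0 lower, with a median of 0.16. Without untreated 4T1R1 replicate 2, the KRAB genes called higher came to 32 and the 221 genes called higher to 58. Beside this rise, the summed counts of 4 endothelial markers went from 34.4 to 40.9 untreated to 9.52 to 26.6 treated, at levels near 0, and those of the epithelial markers from 51476 to 54077 to 51914 to 53474, and their part in the result was not tested. Rn45s, a ribosomal RNA precursor, took 13.4%, 15.6% and 13.6% of the untreated 4T1R1 libraries and 9.54%, 12.2% and 10.1% of the treated ones without overlap, and its part in the rise was not tested either. With total counts, 53 KRAB genes were higher and 0 lower, or 47.7% and 0%, where 17.4% and 9.74% of all genes were called.

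Zfp442 and Zfp945, whose promoters are printed above, and Zfp930 and Zfp873 rose most in treated 4T1R1 among the genes without overlap of libraries, and all 4 carry a KRAB match. Zfp945 held 470, 440 and 480 counts untreated and 743, 678 and 612 treated, a log2 change of 0.55 (SE 0.08, adjusted p = 2.18e-06, edgeR). Zfp930 held 712, 547 and 622 untreated and 894, 999.8 and 927 treated, a change of 0.58 (SE 0.08). Zfp945 also rose in treated 4T1, by 0.67. In both genes every treated library lay above every untreated one. Zfp442 rose by 0.62 from 152, 118 and 129 counts to 184, 207 and 225, but shares 32.1% of its 50-base words with Zfp937. Zfp873 rose by 0.52. Zfp932 and Zfp958, low in untreated 4T1R1, rose by 0.46 and 0.52, to 406 to 470 and 591 to 642 counts.

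In treated 4T1, 18.4% and 17.9% of all genes were called higher and lower. Among the 10348 genes with the same minimum mean count these shares were 22.7% and 21.9%. Of the 221, 63 were higher and 24 lower, or 28.5% and 10.9%. The 111 KRAB genes accounted for 31 of the higher and 4 of the lower, or 27.9% and 3.6% of the 111. Their median log2 change was 0.12 beside 0.001 for all genes. The other 110 gave 32 higher and 20 lower, or 29.1% and 18.2%, with a median of 0.045. The 28 KRAB genes with 1 or 2 digits, outside the 221, gave 4 higher and 2 lower, with a median of -0.001. The split among the 221 depended on scaling. With total counts in place of TMM, the median of all genes fell to -0.11. The calls became 25 higher and 46 lower among the 221, and 13 and 13 among the 111 KRAB genes. Of all genes, 8.83% and 32% were then called. The KRAB median was then -0.00. Rn45s took 11.4%, 10.9% and 10.7% of the untreated 4T1 libraries and 13.2%, 14.1% and 13.4% of the deposited treated ones. These did not overlap, and the part of Rn45s in the split was not tested. Without treated 4T1 replicate 3, which leaves the averaged pair alone in its group, 18 KRAB genes were called higher.

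Treated 4T1R2 moved least. There 15 of the 221 were higher and 7 lower, or 6.79% and 3.17%, where 6.18% and 4.35% of all genes were called. Among the 10348 genes with the same minimum mean count these shares were 7.93% and 5.34%. With total counts the split of the 221 turned to 7 and 12, or 3.17% and 5.43%, where that of all genes turned to 2.7% and 8.48%. Of the KRAB genes 4 were higher and 1 lower, against 2 and 1 with total counts, and their median log2 change was 0.08. Of the other 110, 11 were higher and 6 lower, or 10% and 5.45%, beside 3.6% and 0.901% of the KRAB genes. The median of the others was 0.027. Leaving out 1 library gave between 1 (without treated 4T1R2 replicate 2) and 7 (without untreated 4T1R1 replicate 2) KRAB genes higher there.

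**Figure D3:**
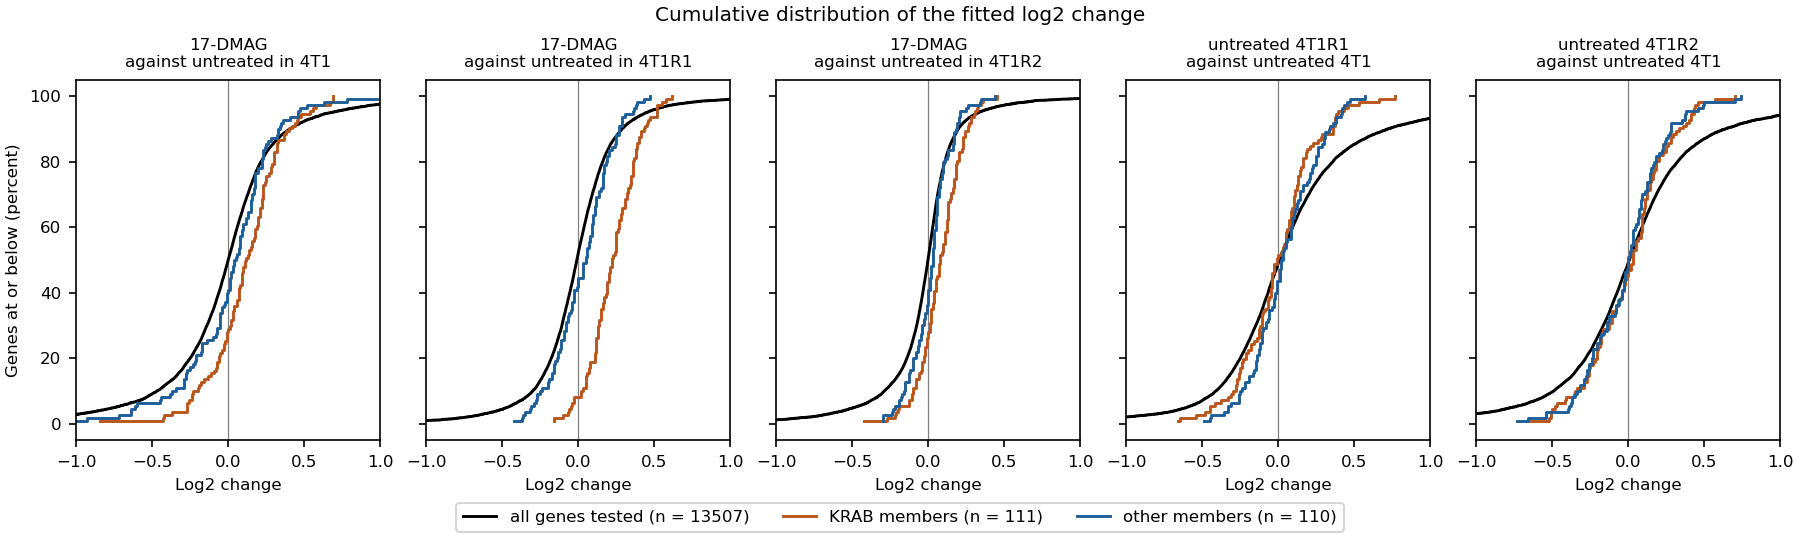
Percent of genes (y axis) at or below each fitted log2 change (x axis, cut at -1 and 1) for all 13507 genes tested (black), 111 KRAB genes (orange) and 110 other numbered Zfp genes (blue) in 5 comparisons. The KRAB curve lies right of the others in treated 4T1R1, with a median of 0.22, and the shift in treated 4T1 is relative to all genes, whose median fell to -0.11 with total counts.

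Each population had untreated libraries of its own, so the responses can be set side by side. Of the genes higher in treated 4T1, 37 were also higher in treated 4T1R1, which is 58.7% of the 63 and 45.1% of the 82, and 19 of the 37 had a KRAB match. Over all genes tested the same overlap was 43.9% of the genes higher in 4T1 and 58.3% of those higher in 4T1R1. Of the 15 genes higher in treated 4T1R2, 9 were higher in 4T1 and 11 in 4T1R1, or 60% and 73.3%, beside 75.4% and 77.4% over all genes. Higher in all 3 populations were 7 genes, namely Zfp111, Zfp317 and Zfp930 with a KRAB match and, without one, Zfp148, Zfp397, Zfp462 and Zfp706. Lower in all 3 were Zfp395, Zfp592, Zfp608, Zfp687 and Zfp703, none with a KRAB match. No gene was higher in 4T1 and lower in a resistant population, while 4 genes were lower in treated 4T1 and higher in treated 4T1R1, namely Zfp367, Zfp383, Zfp654 and Zfp934. Opposite calls and calls in all 3 populations were not counted over all genes, so these counts describe the named genes only.

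The strongest falls were in treated 4T1. Zfp503, of the NET family, dropped from 1735, 1816 and 1700 counts to 786 and 669, a log2 change of -1.26 (SE 0.06, adjusted p = 3.69e-20, edgeR). In 4T1R1 it fell by 0.36, to 1849, 1805 and 1918 counts, and in 4T1R2 its log2 change was -0.13 and not called. The response was weaker in both resistant populations, by a difference of 0.90 (SE 0.08) in 4T1R1 and 1.13 (SE 0.08) in 4T1R2 on the log2 scale. Untreated resistant cells thus held more Zfp503 than untreated 4T1 and lost less of it with drug. Its relative Zfp703 fell in all 3, by 0.38, 0.29 and 0.19. Zfp704, described above, rose by 0.25 in treated 4T1, with estimates of 0.08 and 0.07 in the resistant populations that were not called.

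Zfp608 dropped from 1195, 1280 and 1120 counts in untreated 4T1 to 645 and 607, a log2 change of -0.93 (SE 0.07, adjusted p = 1.51e-14, edgeR). It fell in 4T1R1 by 0.42 and in 4T1R2 by 0.30, less than in 4T1 by 0.52 and 0.63. In all 3 populations the treated and untreated libraries did not overlap. Its paralogue Zfp609, which works with the cohesin loader and Integrator, rose by 0.15 in treated 4T1, with estimates of 0.00 and 0.03 in the others that were not called.

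Zfp827, which brings the NuRD remodeller to telomeres, fell from 1962, 1898 and 1893 counts to 1205 and 1125 in treated 4T1, a log2 change of -0.72 (SE 0.06, adjusted p = 5.97e-14, edgeR). It was 0.15 lower in treated 4T1R1, and the change of -0.13 in 4T1R2 was not called. Zfp217, an oncogene amplified in breast cancer that joins the CoREST complex, fell by 0.45 in 4T1, with estimates of -0.08 in each resistant population that were not called, a difference of 0.37 in both. The KRAB gene Zfp658 fell by 0.84 in 4T1, from 168, 184 and 149 counts to 98.2 and 86.4, and its estimates of -0.03 and 0.03 in 4T1R1 and 4T1R2 were not called.

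Zfp420 rose most. Untreated 4T1 held 125, 123 and 142 counts and treated 4T1 held 248 and 283, a log2 change of 1.02 (SE 0.14, adjusted p = 2.02e-07, edgeR). Untreated 4T1R1 and 4T1R2 already held more, 167 to 194 and 163 to 208 counts. The treated level was 195 to 275 in 4T1R1, an increase of 0.38, and 186 to 220 in 4T1R2, where the estimate of 0.19 was not called. Zfp473 rose by 0.78 in treated 4T1 and 0.47 in treated 4T1R1. Zfp960 and Zfp873, both KRAB genes, each rose by 0.69 in 4T1, but Zfp960 shares 82.7% of its 50-base words with Zfp97. Zfp960 also passed the count threshold through some of the groups only.

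**Figure D4:**
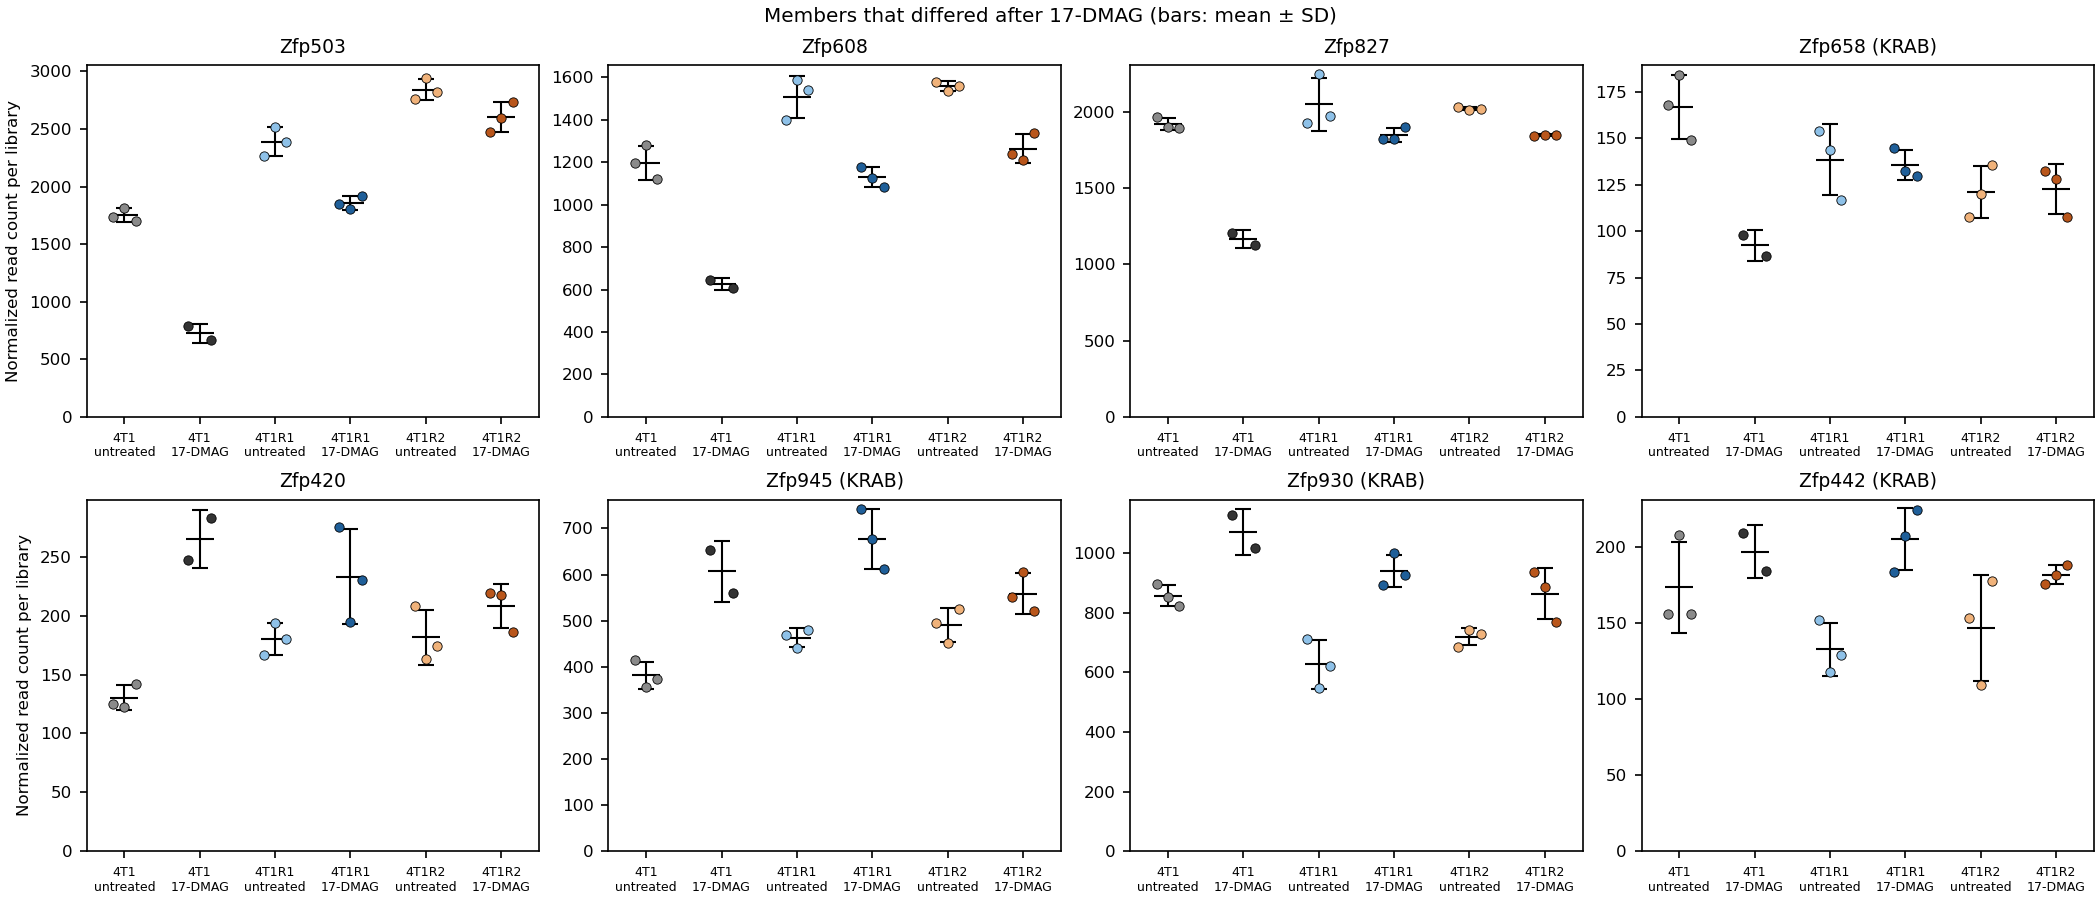
Normalized read counts (y axis) in each library (points) by group (x axis) for 8 genes called after 17-DMAG, with mean ± SD as bars. Zfp503, Zfp608, Zfp827 and Zfp658 fall most in 4T1, Zfp420 rises most in 4T1, and Zfp930 rises in all 3 populations.

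In treated 4T1R1 the genes lower without overlap were Zfp608, Zfp385a (-0.37), Zfp503 and Zfp414 (-0.35), none with a KRAB match. Zfp385a, an RNA-binding p53 partner, lost the call when 1 library was left out, with an adjusted p of up to 0.0972 by edgeR over 2 such fits. In treated 4T1R2, Zfp593 (0.44), Zfp932 (0.35), Zfp296 (0.35) and Zfp930 (0.27) rose, and Zfp119a (-0.42), Zfp608, Zfp414 (-0.30) and Zfp395 (-0.22) fell. Except for Zfp608, each of these lost the call in at least 3 of 26 alternatives, and Zfp119a in 13, most of them fits with 1 library left out.

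The responses differed between populations in a minority of genes. The difference 4T1R1 minus 4T1 was above 0 for 29 of the 221 and below 0 for 10, or 13.1% and 4.52%, where 9.16% and 9.08% of all genes were called. With total counts these became 79 and 1, or 35.7% and 0.452%, where 26.2% and 3.1% of all genes were called. The difference 4T1R2 minus 4T1 was above 0 for 13 and below 0 for 21, or 5.88% and 9.5%, where 9.62% and 8.16% of all genes were called, and with total counts 24 and 11, where 15.5% and 4.68% of all genes were called. Both differences share the 4T1 libraries, including the group with n = 2.

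After Zfp503, the largest positive differences in 4T1R1 were those of Zfp934 (0.84) and Zfp658 (0.82). Zfp934, a KRAB gene on chromosome 13, fell from 224, 182 and 218 to 159 and 148 counts in treated 4T1 and rose from 153, 148 and 157 to 217, 184 and 207 in treated 4T1R1. Its exons overlap Zfp935 on the same strand and it shares 29.5% of its 50-base words with Zfp808. The largest negative differences were those of Zfp420 (-0.64), Zfp689 (-0.49) and Zfp202 (-0.36). In 4T1R2 the order was Zfp503, Zfp658 (0.87) and Zfp239 (0.64) above 0, and Zfp420 (-0.83), Zfp839 (-0.58) and Zfp689 (-0.53) below.

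**Figure D5:**
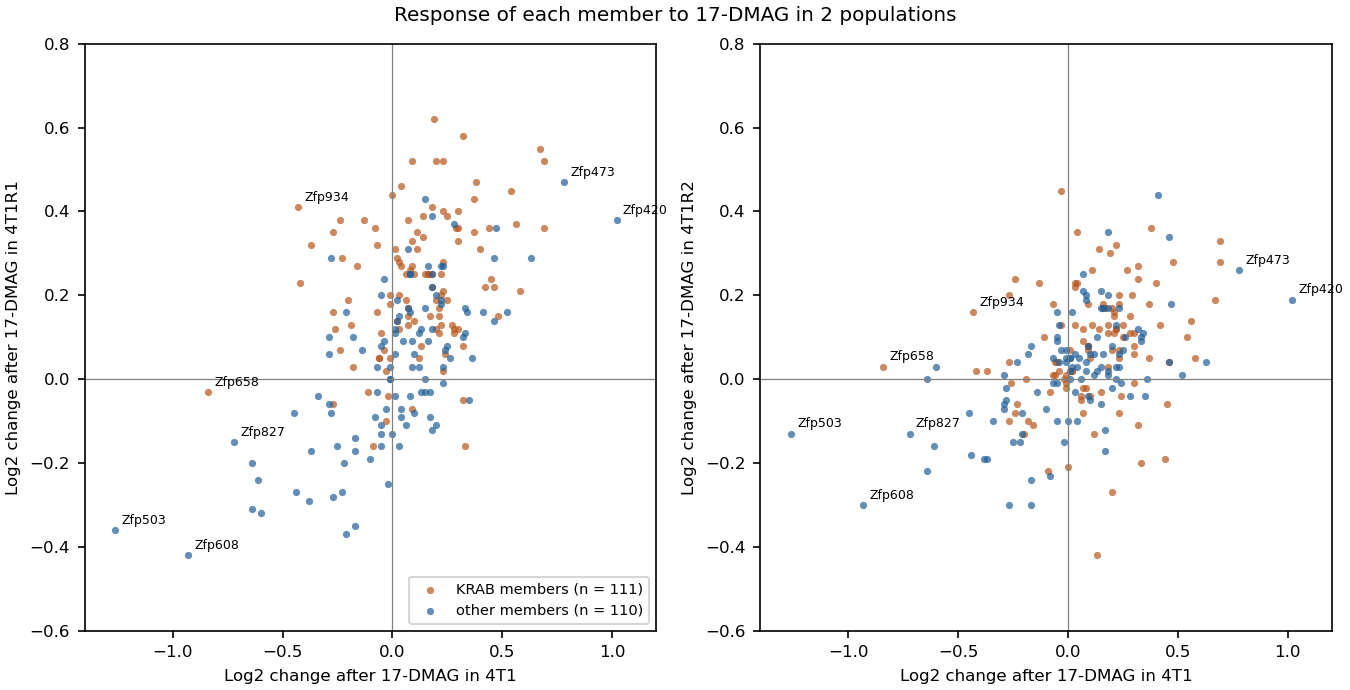
Fitted log2 change after 17-DMAG in 4T1 (x axis) against that in 4T1R1 (left, y axis) and 4T1R2 (right, y axis) for 111 KRAB genes (orange) and 110 others (blue). Points spread further along x than y, Zfp503 and Zfp608 lie lowest in 4T1, and in the left panel most KRAB genes lie above 0.

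Genes in tandem clusters were described as groups of at least 3 of the 221 with starts under 500 kb apart, in GRCm38. There were 17 such clusters with 98 genes, 75 of them with a KRAB match. In treated 4T1R1, 35 of the 75 clustered KRAB genes were higher, with a median log2 change of 0.25, and 14 of the 36 outside clusters, with a median of 0.20. Whether the clustered genes differed from the others was not tested. The cluster counts that follow stand beside 18.4% of all genes higher in treated 4T1, 13.9% in treated 4T1R1 and 6.18% in treated 4T1R2, and, untreated, 25.2% higher and 27.5% lower in 4T1R1 and 25.6% and 26.9% in 4T1R2. Genes of a cluster can share reads, and most clusters hold too few genes for a share to be read from them.

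On chromosome 8, the cluster chr8:69209038-69791178 holds Zfp930, Zfp868, Zfp869, Zfp963 and Zfp866, all with a KRAB match. Higher after 17-DMAG were 4 of the 5 in 4T1, 4 in 4T1R1 and 1 in 4T1R2, while 3 were lower in each untreated resistant population. Zfp866 was 0.48 lower in untreated 4T1R1 and 0.51 lower in 4T1R2 on the log2 scale, and rose by 0.30 in treated 4T1 and 0.33 in treated 4T1R1.

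The 9 KRAB genes of chr17:21567008-22867134, which include Zfp945 and Zfp942, had 1 higher in treated 4T1, 6 in treated 4T1R1 and 0 in treated 4T1R2, with a median log2 change of 0.38 in 4T1R1. Further along, chr17:32765496-33631779 with 11 genes had 6 higher and 1 lower in treated 4T1R1, the lower one being Zfp414. On chromosome 2, chr2:150114406-150485091 holds Zfp120, Zfp937, Zfp442 and Zfp345, of which 3 were higher in treated 4T1R1 and 2 in treated 4T1. The 11 KRAB genes of chr13:67121660-67792512 had 3 higher in each of these populations and, untreated, 3 higher in 4T1R2 and 1 in 4T1R1. In the small clusters of Zfp119a on chromosome 17 and Zfp658 on chromosome 7, 1 of 3 and 2 of 3 genes were higher in treated 4T1R1.

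Chromosome 7 held 53 of the 221 genes. Its cluster chr7:29816114-30169750 includes Zfp940, Zfp420 and Zfp146, where untreated 4T1R1 had 3 of its 9 genes higher and untreated 4T1R2 had 2, with none lower. At chr7:4915217-5053723, Zfp628, Zfp579, Zfp865 and Zfp580 have no KRAB match, and all 4 were higher in untreated 4T1R1, against 1 higher and 1 lower in 4T1R2. Of these, Zfp580 passed the count threshold through some of the groups only. Chromosome 7 aside, chromosomes 17 and 13 held the most, with 28 and 22 genes.

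By level, the family was led by genes outside the KRAB class. Per kb of exon, Zfp106 (an RNA-binding protein needed by motor neurons) had 1482 normalized counts on average, Zfp706 had 1345, Zfp207 had 1155, Zfp598 had 886 and Zfp146 had 746. Between groups, the mean level per kb ran from 1398 to 1558 for Zfp106, 1150 to 1629 for Zfp706, 1026 to 1349 for Zfp207, 801 to 939 for Zfp598 and 697 to 781 for Zfp146. Zfp706 rose after 17-DMAG in every population, by 0.18, 0.22 and 0.17 on the log2 scale in 4T1, 4T1R1 and 4T1R2, and was 0.33 and 0.23 lower in untreated 4T1R1 and 4T1R2. Zfp207, which carries the checkpoint protein Bub3 to kinetochores, rose by 0.20 in treated 4T1 and by 0.20 in treated 4T1R1, with 0.08 in 4T1R2 not called.

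Among 9 tested genes of RNA and translation, 6 rose and 2 fell in treated 4T1, 4 and 1 in treated 4T1R1, and 1 and 0 in treated 4T1R2, where all genes gave 18.4% and 17.9%, 13.9% and 14.3%, and 6.18% and 4.35%. Zfp598, the ubiquitin ligase that marks collided ribosomes, was higher in both untreated resistant populations by 0.23 and 0.18 and rose by 0.15 in treated 4T1, against estimates of -0.03 and -0.06 in the resistant cells. Zfp622, a factor of 60S ribosome maturation, was 0.30 and 0.26 higher in untreated 4T1R1 and 4T1R2. Zfp346, which binds double-stranded RNA, rose by 0.46 in treated 4T1 and 0.29 in treated 4T1R1. Zfp638, which brings the HUSH complex to unintegrated retroviral DNA, fell by 0.29 in treated 4T1, and its estimates in the resistant populations were 0.10 and 0.01.

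Among 12 tested chromatin partners, 4 rose and 4 fell in treated 4T1, beside 18.4% and 17.9% of all genes. The falls were those of Zfp217, Zfp827, Zfp592 (by 0.37) and Zfp687 (by 0.44), of which the last pair are ZMYND8 partners, as is Zfp532, which rose by 0.23. Zfp516 and Zfp462 rose by 0.20 and 0.15. In the untreated resistant populations Zfp462 and Zfp644, both partners of the H3K9 methyltransferases G9a and GLP, were lower, by 0.15 and 0.34 and by 0.33 and 0.32 in 4T1R1 and 4T1R2. Zfp518a, the paralogue of Zfp518b, held 288 to 344 counts in untreated 4T1 and 271 to 391 in the untreated resistant libraries, and was not called in any comparison with 4T1 or with drug.

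Of 13 promoter-binding activators and repressors, 2 rose and 2 fell in treated 4T1, 3 rose in treated 4T1R1 and 2 in treated 4T1R2, beside 18.4% and 17.9%, 13.9%, and 6.18% of all genes, which for treated 4T1 is near the share of this group. Zfp148 rose in all 3, by 0.22, 0.27 and 0.13, and Zfp281, which like it binds GC-rich promoters, by 0.19 in 4T1R1 and 0.16 in 4T1R2. Zfp410, known for driving Chd4, was 0.21 and 0.22 higher in untreated 4T1R1 and 4T1R2. Zfp367 fell by 0.21 in treated 4T1 and rose by 0.16 in treated 4T1R1, a difference of 0.37 (SE 0.08, adjusted p = 0.0011, edgeR). Of 5 genes of mitosis and genome stability, 2 rose and 1 fell in each of treated 4T1 and 4T1R1, and none was called in treated 4T1R2, Zfp668 being called in no comparison.

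The silencing machinery that KRAB proteins recruit was read from a separate list of 24 symbols, 23 of them tested. In untreated 4T1R1 5 were higher and 14 lower, beside 25.2% and 27.5% of all genes, and in 4T1R2 6 and 8, beside 25.6% and 26.9%, which is near the share of the 6. Trim28 itself had 13418 counts in untreated 4T1 and was 0.08 and 0.10 lower in 4T1R1 and 4T1R2, whereas Setdb1 was 0.24 higher in 4T1R2. Zfp57, a KRAB guardian of imprints, was lower in both, by 0.60 and 0.86. After 17-DMAG 3 of the 23 were higher and 7 lower in 4T1, 7 and 2 in 4T1R1, and 3 and 1 in 4T1R2, beside 18.4% and 17.9%, 13.9% and 14.3%, and 6.18% and 4.35% of all genes. Setdb1 and Uhrf1 fell by 0.33 and 0.53 in treated 4T1. In treated 4T1R1, where KRAB genes rose, Trim28 fell by 0.08, the Setdb1 estimate of -0.04 was not called, and the HUSH subunits Mphosph8 and Fam208a rose by 0.26 and 0.30, whereas Fam208a had fallen by 0.28 in treated 4T1.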

How the data were processed

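The deposited table holds raw read counts per gene, made by the authors with STAR and featureCounts (Subread 1.6.2) on mm10 after demultiplexing with bcl2fastq 2.20, per the labels and the submitters' processing notes. The settings for strand and multimapping are not given in the sources used here. Of counts between 1 and 12, 65.6% to 70.8% were even, so mates of a pair were counted as 2 reads and counting intervals are too narrow. Rn45s, a ribosomal RNA precursor, took 9.54% to 15.6% of each library.

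Samples were grouped by their titles into 6 groups of 3. Replicates 1 and 2 of treated 4T1 had a chi-square of 1.1 per gene over genes whose counts summed to 4 to 30, against 2.04 to 2.22 in the other 17 pairs, and were averaged, although above 1000 counts their 3.34 lay within the 3.03 to 18 of the others. Nothing but the words biological replicas states separate cultures, so p-values measure the spread between these libraries. Replicate numbers did not pair the samples.

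Counts were fitted in edgeR 4.0.16 under R 4.3.3 with TMM scaling, filterByExpr, all 6 groups in 1 model and the quasi-likelihood test, with Benjamini-Hochberg adjustment over 13507 genes and a threshold of 0.05. Scripts were tested on simulated data. Genes were named as the 4 with the largest log2 changes in each direction among called genes whose libraries did not overlap (3 between resistant populations and for differences of response, the latter without the overlap condition), members of role lists, the 5 with most counts per kb, members of clusters holding a named gene, the neighbours of Zfp518b and Zfp612, these 2 genes, and those at the count threshold. Members, lists and tests were chosen with earlier results of these data known. Genes mentioned outside these rules were chosen after their values were seen. Positions, exon lengths and proteins came from GENCODE vM21 on GRCm38, and promoters from RefSeq. Alternatives were RLE scaling, total counts, other filters, DESeq2 1.42.0, fewer groups, 18 separate libraries, a replicate block, other mean counts and leaving out each library. The subset of KRAB genes without shared sequence was added after seeing the data. Depth limits the low genes most, and intervals and floors cover counting error only.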

Additional observations from a re-analysis of the deposited data

Results flagged for a closer look

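The response to 17-DMAG was compared between each resistant population and 4T1 as an interaction term in the edgeR fit, and the named genes whose difference passed an adjusted p of 0.05 are given here as log2 differences, resistant minus 4T1. A positive value means a smaller fall or a larger rise than in 4T1, and all of them rest on the 2 samples of treated 4T1. With groups of 2 or 3 samples, no single library was tested for standing apart.

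Calls in both differences were not counted over all genes, and both differences share the 4T1 libraries. Among the named genes, both resistant populations differed from 4T1 for 13, a count that describes these genes only. For those that fell in treated 4T1, the differences in 4T1R1 and 4T1R2 were 0.90 and 1.13 for Zfp503, 0.82 and 0.87 for Zfp658, 0.84 and 0.59 for Zfp934, 0.57 and 0.59 for Zfp827, and 0.52 and 0.63 for Zfp608. Smaller ones were 0.37 and 0.37 for Zfp217, 0.33 and 0.43 for Zfp395, and 0.38 and 0.29 for Zfp638. For genes that rose in treated 4T1 they were -0.64 and -0.83 for Zfp420, -0.49 and -0.53 for Zfp689, -0.36 and -0.53 for Zfp202, -0.31 and -0.22 for Zfp516, and -0.18 and -0.21 for Zfp598. Without treated 4T1 replicate 3 the 4T1R1 difference of Zfp658 had an adjusted p of 0.0501 by edgeR, and those of Zfp420, Zfp202 and Zfp689 and the 4T1R2 differences of Zfp239 and Zfp689 also lost their calls. Over 26 alternatives the call was lost in 5 for Zfp689 in 4T1R1 (adjusted p up to 0.162 by edgeR) and 2 in 4T1R2, in 3 each for Zfp202 (up to 0.151) and Zfp420 in 4T1R1, in 2 for Zfp239 in 4T1R2, and in 1 for Zfp658 in 4T1R1. Only the 3 largest differences in each direction were followed in this way.

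In 4T1R1 alone, differences were called for Zfp942 (0.43), Zfp932 (0.42), Zfp367 (0.37), Zfp326 (0.35), Zfp958 (0.32), Zfp664 (0.21), Zfp592 (0.20) and Zfp609 (-0.14). In 4T1R2 alone they were called for Zfp239 (0.64), Zfp687 (0.25), Zfp346 (-0.41), Zfp945 (-0.49), Zfp799 (-0.51) and Zfp839 (-0.58). Whether these genes differ between the resistant populations was not tested.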

How the results depend on the processing

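With total counts in place of TMM, the 221 genes gave 25 higher and 46 lower in treated 4T1, 7 and 12 in treated 4T1R2, 79 above and 1 below 0 for the 4T1R1 difference, and 24 and 11 for the 4T1R2 difference; the median of all genes moved by -0.11 in treated 4T1. RLE scaling, other filters, DESeq2, fewer groups and 18 separate libraries moved no count over the 221 by over 1.5 times. Leaving out 1 library gave 15 to 23 higher in 4T1R2 against 4T1R1 (15 without untreated 4T1R1 replicate 2 or untreated 4T1R2 replicate 3). In treated 4T1R1 it gave 8 to 17 lower (8 without untreated replicate 2 or treated replicate 1). In treated 4T1R2 it gave 6 to 20 higher and 3 to 9 lower. These were moved by untreated 4T1R2 replicates 1, 2 and 3 and treated 4T1R2 replicates 1 and 2. The 20 and the 9 came without untreated 4T1R1 replicate 2. The 4T1R1 difference ran from 3 to 10 below 0 (3 without treated 4T1 replicate 3, 6 without untreated 4T1 replicate 1 or treated 4T1R1 replicate 2) and the 4T1R2 difference from 10 to 27 (10 without treated 4T1 replicate 3). Among the 58 named results, none reversed and 14 lost their call in some alternative. The cause was not tested.

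The replicate block, fitted with 18 separate libraries, gave 45 higher and 38 lower in 4T1R1, 44 and 49 in 4T1R2, 73 and 31 in treated 4T1, 83 and 13 in treated 4T1R1, and 15 and 6 in treated 4T1R2. Same-numbered libraries correlated between -0.0447 and 0.0526 over 45 pairs, and 5 of 18 libraries correlated best with their own number, so the block changes no reading above.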

Other observations

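Zfp symbols of 1 or 2 digits, which the symbol rule left out, gave 37 genes with a mean raw count of at least 100. In treated 4T1R1 13 of them were higher and 1 lower, in treated 4T1 5 and 4, and in treated 4T1R2 0 and 1, by edgeR at an adjusted p under 0.05. All genes gave 13.9% and 14.3%, 18.4% and 17.9%, and 6.18% and 4.35% in the same order, so the counts in 4T1 and 4T1R2 lie below those shares. All 11 called genes of this group with a KRAB match were higher in treated 4T1R1.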
